A study of Mus musculus with 4 samples.

Results

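Cells with the transcripts of Tle4 and Hs3st4, the layer 6 corticothalamic neurons of the embryonic mouse neocortex, were described in single-cell RNA libraries collected at E15.5. A barcode was counted as a layer 6 cell when it held at least 1 UMI (unique molecular identifier, 1 counted transcript) of Tle4 and at least 2 of Hs3st4. It also had to hold fewer than 2 of the 5 subplate genes Nxph4, Nr4a2, Ccn2, Cplx3 and Moxd1, no Gad2, and at most 1 UMI summed over Krt8, Cytl1 and Lbhd2. These conditions read measured counts, so the levels of these 11 genes are given as a description. Of 35255 barcodes, 28672 had at least 1000 UMIs, at least 500 genes and at most 10% mitochondrial UMIs, and 3955 of those (13.8%) were layer 6 cells.

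Both groups came from the rostral neocortex, cut into 300 µm vibratome sections and dissociated with papain. The labels call the cells cortical neurons, although 242 to 503 kept barcodes of a library were counted as radial glia. These held at least 5 Fabp7 UMIs, Sox2 and Pax6, but no Neurod2 or Neurod6, and lay outside the neuron gates used below. The 2 i4F-Nes libraries came from Nestin-Cre;i4F;ROSA-STOP-rtTA embryos, in which Cre, driven by the Nestin promoter in neural progenitors, releases a transactivator that lets doxycycline switch on the 4 Yamanaka factors Pou5f1, Sox2, Klf4 and Myc. The 2 control (CTR) libraries came from littermates with i4F and ROSA-STOP-rtTA but without the Cre. All pregnant females received 0.2 mg/ml doxycycline in the drinking water between E10.5 and E14.5 (4 days). The controls thus carried the cassette and were given the drug too. Neurons can inherit a recombined allele from their progenitors, but which of the neurons described here carried it was not tested. The number of embryos in a library is not given in the sources used here.

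Corticothalamic neurons are the main output of cortical layer 6. They are born early in cortical neurogenesis, send glutamatergic axons through the internal capsule to the thalamus, and are specified by transcription factors such as Tbr1, Sox5 and Fezf2. Tle4 is a Groucho-family corepressor that marks them, and Hs3st4 encodes an enzyme that adds 3-O-sulfate groups to heparan sulfate chains on the cell surface.

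The libraries differed in depth by replicate number more than by group. Layer 6 cells had a median of 17016.5 and 12264 UMIs in i4F-Nes replicates 1 and 2 and of 16068 and 13765 UMIs in CTR replicates 1 and 2, and pairs of values below follow this order. The groups overlapped (exact two-sided permutation p = 1, smallest possible 0.33). Summed over layer 6 cells, the libraries held 11749347 to 22156837 UMIs, which fixed the precision of the gene levels. Mitochondrial genes took a median of 2.47% to 3.15% of UMIs. 96 barcode sequences occurred in more than 1 library, and 29 layer 6 barcodes were also found in another library. Xist stood at 902 and 1178 CPM in the i4F-Nes libraries, against 0 and 1196 CPM in CTR. Against CTR replicate 1 alone, the Y chromosome genes Uty and Kdm5d had log2 fold changes of -6.98 and -6.55 in i4F-Nes. CTR replicate 1 thus stood apart in sex-linked genes, and embryo sex was not a term in any fit. The labels do not say whether the libraries came from separate animals, and the p-values therefore reflect differences among these particular libraries, part of which can be technical.

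The label was checked on markers outside the gate, as the share of cells with at least 1 UMI after each cell was thinned to 5000 UMIs (1203, 764, 749 and 941 layer 6 cells were deep enough). Zfpm2, a GATA cofactor (chromosome 15, 40655035 to 41104592 on GRCm38), was found in 85.5% and 82.6% of layer 6 cells from i4F-Nes, against 80.4% and 87.4% from CTR, and without thinning in 92.7%, 89.7%, 89.5% and 94.0%. In layer 5 cells, taken as Tle4- and Hs3st4-free cells with at least 1 UMI of Fezf2 and 2 of Bcl11b under the same exclusions, it was found in 10.8%, 22.7%, 5.71% and 14.4%. Cells with at least 2 Gad2 UMIs, an interneuron gene, gave 21.7% to 30.6%. The radial glia set defined above, called Fabp7 cells here, gave 28.6% to 42.4%. Both sets left out layer 6 cells, layer 5 cells, cells with at least 2 subplate genes and cells above the Krt8, Cytl1 and Lbhd2 limit. Before thinning, the median depth was 7277 to 8666 UMIs in the Gad2 cells and 14115.5 to 17057 in the Fabp7 cells.

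Other corticothalamic markers were found in most or in part of the layer 6 cells. Sox5, a transcription factor of deep-layer neurons, was found in 98.2% to 99.7% across the 4 libraries. Foxp2, a forkhead factor of corticothalamic neurons, was found in 71.6% to 86.6%, Rprm, a layer 6 marker, in 63.7% to 82.1%, and Tbr1, the T-box factor of early-born neurons, in 53.1% to 62.6%. Grik3, a kainate receptor subunit, was found in 62.1% to 64.7%.

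Markers of more mature layer 6 neurons were sparser. Syt6, a synaptotagmin, was found in 18.0% to 30.2%, Nxph3, a neurexin ligand, in 13.7% to 26.4%, and Ntsr1, the neurotensin receptor used to label adult corticothalamic neurons, in 9.88% to 16.5%. Htr1f, a serotonin receptor (chromosome 16, 64924729 to 65105854), was found in 18.4% and 30.5% of layer 6 cells from i4F-Nes, against 10.9% and 24.8% from CTR. Without thinning its shares were 31.2%, 42.4%, 20.6% and 37.8%. Htr1f was found in at most 3.27% of layer 5 cells, 1.75% of Gad2 cells and 1.85% of Fabp7 cells, so its share in each layer 6 library lay above all of theirs. Cells with at least 2 of the 5 subplate genes came closer, with Htr1f in 15.6%, 15.2%, 4.89% and 15.2% and Zfpm2 in 29.4% to 64.6% after thinning. For both genes the layer 6 share was the higher one in each library, but the Htr1f share of layer 6 cells in CTR replicate 1 lay below that of subplate cells in the other 3 libraries. Within both groups, replicate 2 held more Htr1f-positive cells than replicate 1.

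**Figure D1:**
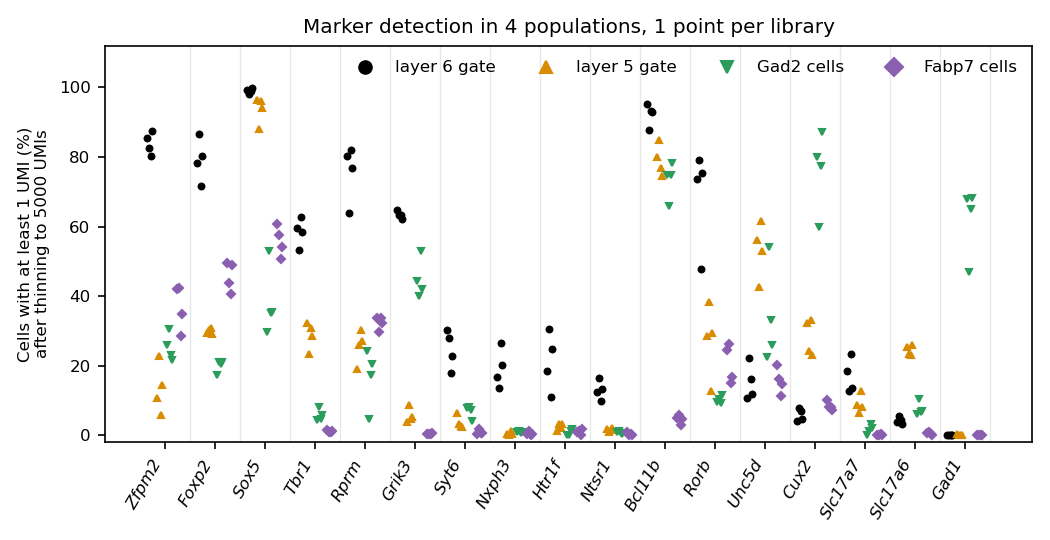
Share of cells with at least 1 UMI of each gene after thinning to 5000 UMIs (vertical axis, %), with 1 point per library for layer 6 cells (black circles), layer 5 cells (orange triangles), Gad2 cells (green triangles) and Fabp7 cells (purple diamonds). Zfpm2, Tbr1, Rprm, Nxph3, Htr1f and Ntsr1 were highest in layer 6 cells in every library among these 4 populations, whereas Unc5d and Slc17a6 were higher in layer 5 cells.

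Factors that mark other projection neurons were present as well. Bcl11b, the factor best known for subcerebral layer 5 neurons, was found in 87.7% to 95.3% of layer 6 cells. The upper-layer genes Cux2 and Unc5d were found in 4.16% to 7.72% and in 10.6% to 22.1% of layer 6 cells, and Rorb, a nuclear receptor of layer 4 and other neurons, in 47.8% to 79.2%.

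Cells just inside and just outside the gate held less Zfpm2 than most members. Barcodes with only 1 Hs3st4 UMI, just outside the gate, numbered 194, 282, 168 and 258 and held 107, 129, 92.3 and 69.6 CPM of Zfpm2. Those with 2 UMIs, just inside, numbered 59, 88, 47 and 77 and held 102, 144, 102 and 165 CPM of Zfpm2. Members with at least 4 Hs3st4 UMIs made up 91.3%, 85.5%, 89.9% and 90.0% of the layer 6 cells and held 1041, 1194, 827 and 1072 CPM of Zfpm2.

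Markers of other cell types summed to less than the layer 6 markers in the members. The 6 interneuron markers summed to at most 1.19 CPM, which the exclusion of Gad2 fixes in part, and the 12 layer 6 markers to 8381 to 10105 CPM. Radial glia markers summed to 322 and 336 CPM in the i4F-Nes libraries, against 474 and 274 CPM in CTR, and those of intermediate progenitors to 83.5 and 85.7 against 179 and 76.8 CPM, highest in CTR replicate 1. Endothelial markers stood at 23.7 CPM in i4F-Nes replicate 2 and at 0.874 to 1.5 CPM elsewhere. Globin transcripts summed to 743 to 3597 CPM. They came almost wholly from 8 barcodes with at least 100 globin UMIs, which held 93.8% to 99.8% of the globin UMIs of a library. Barcodes with a doublet score among the highest 0.8% per 1000 barcodes were 7.79% ± 0.0542 of the layer 6 cells from i4F-Nes, compared with 11.4% ± 0.724 from CTR (SD, n = 2 libraries each, exact permutation p = 0.33).

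The first comparison asked whether layer 6 neurons were found as often after transient induction of the factors. They made up 1226 of 8125 kept barcodes in i4F-Nes replicate 1 (15.1%, exact binomial 95% interval 14.3 to 15.9) and 877 of 6931 in replicate 2 (12.7%, 11.9 to 13.5). In CTR they made up 783 of 6456 (12.1%, 11.3 to 12.9) and 1069 of 7160 (14.9%, 14.1 to 15.8). The intervals cover counting error only, and the groups overlapped, with the highest share in an i4F-Nes library and the lowest in a CTR library. The means were 13.9% ± 1.72 and 13.5% ± 1.98 (SD, n = 2 libraries each), a difference of 0.342 percentage points that was smaller than the spread within either group (exact two-sided permutation p = 0.667).

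The denominator moved this difference. Barcodes with 2 or more UMIs of Krt8, Cytl1 or Lbhd2, genes of clusters found mainly in i4F-Nes libraries, add to the i4F-Nes denominator. Leaving them out gave 15.4% ± 2.06 against 13.5% ± 1.98, a difference of 1.87 points. Among layer 6, layer 5 and subplate cells together, the layer 6 share was 57.2% and 75.6% in i4F-Nes and 43.6% and 68.0% in CTR, a difference of 10.6 points (exact permutation p = 0.667). There replicate 2 of each group held fewer layer 5 and subplate cells than replicate 1. Of the cells that met the Tle4 and Hs3st4 conditions, the Krt8, Cytl1 and Lbhd2 condition removed 3.17% ± 0.285 in i4F-Nes and none in CTR (SD, n = 2 libraries each).

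**Figure D2:**
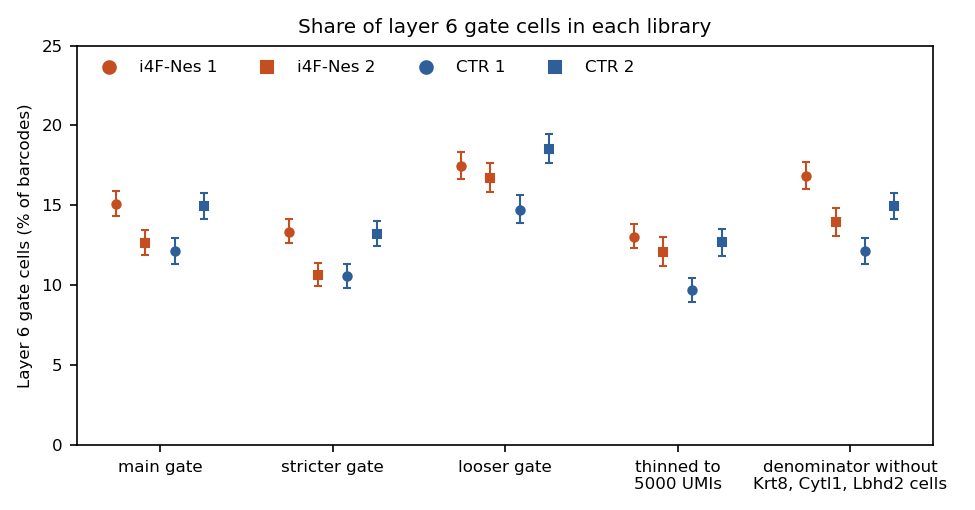
Share of layer 6 cells (vertical axis, %) in each library under the main gate, a stricter gate (at least 2 Tle4 and 3 Hs3st4 UMIs), a looser gate (at least 1 Hs3st4 UMI), barcodes thinned to 5000 UMIs and a denominator without Krt8, Cytl1 and Lbhd2 cells. Orange points are i4F-Nes, blue points CTR, circles replicate 1, squares replicate 2 and bars exact binomial 95% intervals, and the groups overlap in all 5.

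The second comparison asked which genes differed inside layer 6 neurons between i4F-Nes and CTR. UMIs were summed over the layer 6 cells of each library, and levels below are CPM (UMIs scaled to a common library total) after TMM scaling. No gene passed: 0 of 14232 genes tested (0%) had a Benjamini-Hochberg adjusted p of at most 0.05 in edgeR's quasi-likelihood test without covariates, and 162 had an unadjusted p under 0.05. DESeq2's Wald test on the same sums called 5 genes (0.0351%), namely Crabp2, Tafa1, Rmst and Ebf1 as higher and Egfem1 as lower. With the replicate number as a block, which the labels do not state as a pairing, edgeR called 123 genes, 93 higher and 30 lower. Egfem1, Cdh4, Htr1f, Grm3, Nxph3, Sulf1, Hs3st5, Hs3st3b1 and Gpc6 were among them, with further genes named below. Calls given below for this comparison are from the test without covariates unless stated. As a background for what follows, both i4F-Nes libraries lay above both CTR libraries for 12.7% of the genes tested and below for 11%. With 2 libraries a group, a gene that missed the threshold is not shown to be equal.

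Of the gate genes, Tle4 differed more within each group than between the group means. Tle4 (chromosome 19, 14448150 to 14598051) stood at 655 and 941 CPM in the i4F-Nes libraries, against 629 and 866 CPM in CTR. Hs3st4 (chromosome 7, 123982869 to 124398989) stood at 1807 and 2197 against 1277 and 1714 CPM, where both i4F-Nes libraries lay above both CTR libraries. Within each group, replicate 2 held more of both than replicate 1.

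The transcription factors of layer 6 identity were close to equal in level or overlapped. Sox5, which controls the timing of deep-layer neuron generation, stood at 3848 and 3770 CPM in the i4F-Nes libraries, against 4004 and 3624 CPM in CTR. Tbr1 stood at 179 and 175 against 181 and 171 CPM, a log2 fold change of 0.00 ± 0.12 (SE, n = 2 libraries each). All 4 libraries lay between 171 and 181 CPM for Tbr1. Zfpm2 stood at 932 and 1046 against 744 and 1022 CPM (0.16 ± 0.20), and Foxp2 at 624 and 1032 against 492 and 730 CPM (0.44 ± 0.30). For Zfpm2 and Foxp2 the groups overlapped, and the lowest library was CTR replicate 1.

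Receptor and surface genes of the layer 6 list gave no call. Htr1f stood at 60.7 and 122 CPM in the i4F-Nes libraries, against 31.3 and 82.6 CPM in CTR (0.68 ± 0.51). The spread within each group was as wide as the difference between them. At each replicate number i4F-Nes was above CTR, and Htr1f was called under the replicate block. Ntsr1 stood at 23.4 and 34.6 against 18.8 and 26.8 CPM, with overlapping groups. Grik3 stood at 259 and 324 against 243 and 242 CPM (0.27 ± 0.16), with both i4F-Nes libraries above. Syt6 stood at 85.7 and 66.7 against 47.4 and 64.8 CPM, also with both i4F-Nes libraries above, and Nxph3 at 40.1 and 29.3 against 55.7 and 40.5 CPM, with both below. Nxph3 was also called under the replicate block.

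Over the 30 tested genes of the layer 6 list outside the gate, 16 had a higher and 14 a lower fitted value in i4F-Nes, with a median log2 fold change of 0.03, against 7134 higher and 7098 lower and a median of 0.00 over all genes tested. None was called. The groups did not overlap for 10 of them, 6 above and 4 below, against 12.7% and 11% of all genes tested. The layer 5 list gave 12 higher and 7 lower of 19 (median 0.17), and the list of upper-layer and callosal genes 10 higher and 13 lower of 23 (median -0.07), again with none called. Rorb, from the last list, stood at 545 and 842 against 234 and 599 CPM, with overlapping groups and CTR replicate 1 lowest.

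**Figure D3:**
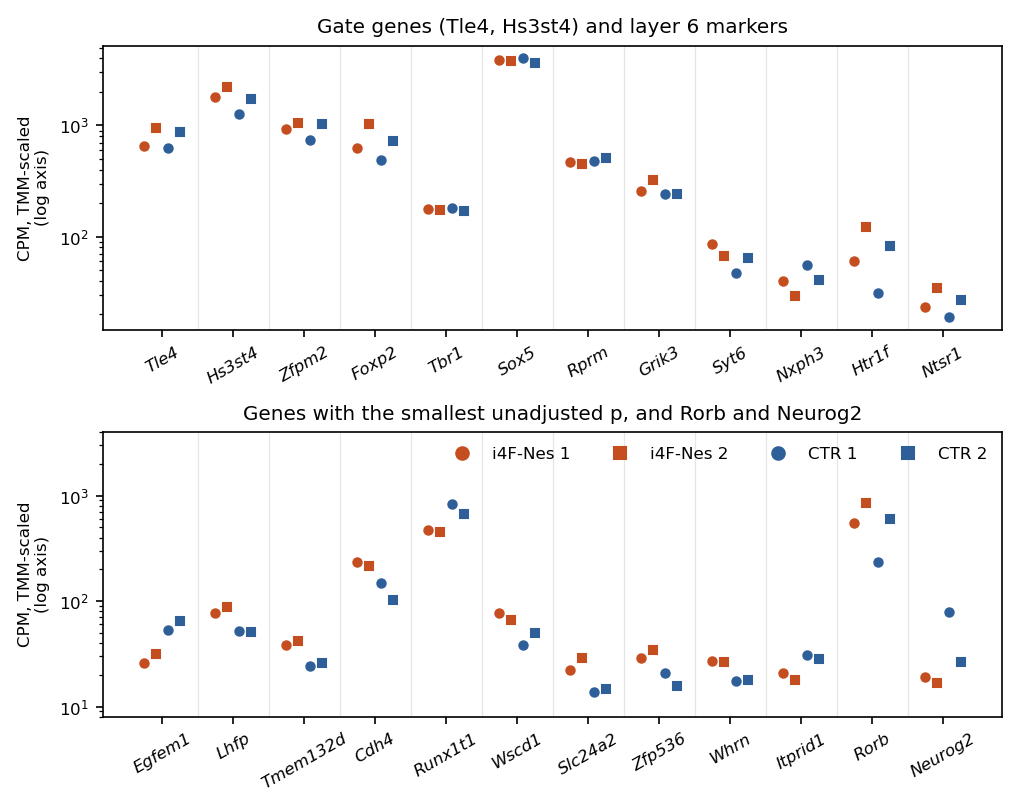
TMM-scaled CPM (vertical axes, log scale) in the 4 libraries for the gate genes and layer 6 markers (upper panel) and for the 10 genes with the smallest unadjusted p among those with at least 20 CPM, with Rorb and Neurog2 (lower panel). Orange marks are i4F-Nes, blue marks CTR, circles replicate 1 and squares replicate 2. None of the genes tested passed the threshold in edgeR without covariates.

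The 10 genes with the smallest unadjusted p among those with a mean of at least 20 CPM were separated between groups but missed the threshold (adjusted p = 1.00 in edgeR for each, after rounding). Egfem1, an EGF-like and EMI domain gene (chromosome 3, 29082023 to 29691209), stood at 25.8 and 31.5 CPM in the i4F-Nes libraries, against 53.4 and 64.9 CPM in CTR. Its log2 fold change was -1.05 ± 0.17 (SE, n = 2 libraries each), and it was 1 of the 5 genes that DESeq2 called. Runx1t1, a transcriptional corepressor, also had lower values, at 475 and 453 against 823 and 671 CPM (-0.69 ± 0.16). Itprid1 stood at 20.6 and 17.8 against 30.5 and 28.3 CPM.

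The other 7 had higher values in i4F-Nes. Cdh4, which encodes R-cadherin, a homophilic adhesion molecule, stood at 236 and 215 against 147 and 102 CPM (0.86 ± 0.20). Lhfp stood at 77.1 and 87.2 against 52.0 and 51.1 CPM (0.67 ± 0.13), and Tmem132d, a transmembrane protein, at 38.7 and 41.4 against 24.1 and 25.6 CPM (0.69 ± 0.14). For these 3 genes the lowest i4F-Nes library lay above the highest CTR library by more than the difference within the i4F-Nes group. Wscd1, Slc24a2, a sodium, potassium and calcium exchanger, Zfp536, a repressor of neuronal differentiation, and Whrn, the PDZ scaffold whirlin, had log2 fold changes of 0.71, 0.83, 0.80 and 0.58. Under the replicate block, all of the genes with the smallest unadjusted p but Wscd1 and Zfp536 were called.

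Genes that build and edit heparan sulfate were examined because Hs3st4 defines the cells. Sulfotransferases and sulfatases set the pattern of sulfate groups to which growth factors and guidance ligands bind. Sulf1, an extracellular 6-O-endosulfatase, stood at 11.9 and 35.9 CPM in the i4F-Nes libraries, against 2.37 and 6.38 CPM in CTR (2.43 ± 0.66, unadjusted p = 0.0100 in edgeR). The groups did not overlap, and i4F-Nes replicate 2 was highest. Its relative Sulf2 stood at 6.38 and 11.1 against 3.55 and 5.08 CPM (1.00 ± 0.36).

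Of the 3-O-sulfotransferases, Hs3st3b1 (chromosome 11, 63885792 to 63922290) stood at 29.9 and 33.9 against 19.2 and 23.9 CPM (0.56 ± 0.18), with both i4F-Nes libraries above. Hs3st5 stood at 444 and 660 against 256 and 426 CPM (0.70 ± 0.30), again with both above, while Hs3st2, at 54.8 and 95.1 against 20.4 and 59.2 CPM, overlapped. Hs6st3, a 6-O-sulfotransferase, was lower in both i4F-Nes libraries, at 9.93 and 12.1 against 20.1 and 19.2 CPM (-0.84 ± 0.19). The core protein gene Gpc6, a glypican, stood at 254 and 388 against 123 and 250 CPM. Over the 33 tested members outside the gate, 21 had higher and 12 lower fitted values (median 0.08), and none was called. Of them 11 lay wholly above and 2 wholly below, against 12.7% and 11% of all genes tested. Under the replicate block, Sulf1, Hs3st5, Hs3st3b1 and Gpc6 were called.

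Genes of glutamatergic transmission gave no call either. Of 40 tested, 29 had higher and 11 lower fitted values in i4F-Nes, with a median of 0.11. Of them 4 lay wholly above and none below, against 12.7% and 11% of all genes tested. Slc17a7, the vesicular glutamate transporter of mature cortical neurons, stood at 36.2 and 28.9 against 45.2 and 32.0 CPM, and Slc17a6, the transporter used earlier in development and in the thalamus, at 11.4 and 23.1 against 17.5 and 15.4 CPM. Grm3, a group II metabotropic receptor, ranged from 28.7 CPM in CTR replicate 1 to 240 CPM in i4F-Nes replicate 2, with 67.5 CPM in i4F-Nes replicate 1 and 141 CPM in CTR replicate 2. Its log2 fold change of 0.85 ± 0.99 changed sign without i4F-Nes replicate 2 (-0.34). At each replicate number Grm3 was higher in i4F-Nes, and it was called under the replicate block. Among 17 serotonin and peptide receptor genes, 10 had higher and 7 lower fitted values (median 0.32). Of them 5 lay wholly above and 3 wholly below, against 12.7% and 11% of all genes tested. Hcrtr2, an orexin receptor, stood at 19.6 and 23.3 against 12.2 and 14.6 CPM (0.68 ± 0.20).

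Axon guidance genes, which steer corticothalamic axons, were balanced, with 30 higher and 29 lower of 59 tested and a median of 0.00. Ephb1, an ephrin receptor, stood at 636 and 780 against 533 and 558 CPM (0.38 ± 0.16), and Flrt3, a partner of Unc5 and Robo receptors, at 12.8 and 20.8 against 28.8 and 25.4 CPM (-0.70 ± 0.26). In both the groups did not overlap. Dcc, the netrin receptor, stood at 1724 and 1236 against 1556 and 1248 CPM, and Robo1, the Slit receptor, at 1073 and 994 against 751 and 1081 CPM, with overlapping groups. The 4 tested TLE corepressors other than Tle4, all with small lower values (median -0.18), included Tle1 at 16.1 and 14.8 against 25.2 and 16.1 CPM.

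The reprogramming factors were at low levels at collection, after doxycycline had ended at E14.5. Pou5f1, the core pluripotency factor, stood at 2.53 and 2.06 CPM in layer 6 cells of i4F-Nes embryos, against 2.43 and 1.05 CPM in CTR. Sox2, a factor also used by neural progenitors, stood at 8.42 and 15.9 against 19.0 and 8.68 CPM, Klf4 at 1.02 and 1.29 against 1.32 and 1.55 CPM, and Myc at 16.9 and 11.5 against 19.1 and 10.8 CPM. For Pou5f1, Sox2 and Myc the groups overlapped, and Klf4 was lower in both i4F-Nes libraries at very low levels. Nanog had 8 and 5 UMIs over all i4F-Nes layer 6 cells and 1 and 1 over the CTR cells. A 3′ tag of the induced cassette may lie outside the annotated genes, so these levels do not check the labels.

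Transcripts of the altered i4F-Nes clusters were low but present in i4F-Nes layer 6 cells. Crabp2, a retinoic acid binding protein, had 110 and 74 UMIs, 4.88 and 6.34 CPM, in i4F-Nes and 10 and 7 UMIs, 0.658 and 0.434 CPM, in CTR (3.34 ± 0.40). It was found in 2.08% and 1.96% of thinned i4F-Nes layer 6 cells, against 2.52% and 0.847% of Fabp7 cells and 2.61% and 7.06% of Gad2 cells in the same libraries. Its share in layer 6 cells lay within or below the range of those other cells. In the whole i4F-Nes libraries Crabp2 stood at 99.1 and 64.1 CPM, and the part of free RNA in the layer 6 value was not tested.

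Of 22 genes in that list, 11 could be tested and all had higher fitted values in i4F-Nes, with a median of 1.66. Of the 11, 8 lay wholly above, against 12.7% of all genes tested. The list was chosen on these samples, so its direction is no independent evidence. Tafa1, a secreted protein, had 66 and 86 UMIs against 4 and 4, and Lgals7, a galectin, stood at 11.7 and 17.7 against 5.33 and 6.63 CPM. Members with a single UMI of Krt8, Cytl1 or Lbhd2, which the gate allows, numbered 102 and 21 in i4F-Nes and 1 and 1 in CTR. The remaining genes called by DESeq2 were Rmst, a long noncoding RNA, at 8.07 and 7.29 against 1.84 and 1.61 CPM, and Ebf1, a factor of striatal and Cajal-Retzius neurons, at 6.29 and 20.9 against 2.04 and 0.744 CPM.

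Stress and cell cycle lists gave small shifts. Of 21 p53 target genes, 12 had higher and 9 lower fitted values (median 0.01), and of 22 immediate early and dissociation genes 11 were higher and 11 lower (median -0.02). The unfolded protein and integrated stress response list had 5 higher and 17 lower of 22 (median -0.09), glycolysis and hypoxia 10 higher and 15 lower of 25 (median -0.09), and S phase and mitosis 19 higher and 9 lower of 28 (median 0.11). Neurog2, the proneural factor of progenitors, stood at 18.9 and 16.7 against 78.6 and 26.7 CPM (-1.56 ± 0.48), and it was CTR replicate 1 that stood apart. The intermediate progenitor markers summed to their highest value in the same library, and their part in the Neurog2 value was not tested.

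The third comparison set layer 6 cells against the 1949 layer 5 cells of the same libraries (662, 203, 686 and 398). The name layer 5 refers to the gate alone. In these cells the 6 layer 5 markers summed to 1079 to 1255 CPM, against 1601 to 1906 CPM in layer 6 cells. The 7 upper-layer or callosal markers summed to 2619 to 3732 CPM, against 1075 to 1793 CPM. Whether the set held other projection neurons was not tested. Layer 6 cells had more Zfpm2, Grik3, Grm3, Hs3st3b1 and Htr1f transcripts and fewer Pou3f1, Plxna4 and Slc17a6 transcripts. The gates that separate both sets read UMIs of the same cells, so the size of each difference is given as a description and nothing is drawn from the number of calls. With the library as a block, 6512 of 13557 genes outside the gates (48.0%) passed in edgeR, 3171 higher (23.4%) and 3341 lower (24.6%). At least 2-fold differences were fewer, with 870 called genes higher (6.42%) and 454 lower (3.35%). Each gene named below as higher or lower passed at an adjusted p of at most 0.05 in edgeR.

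Markers of corticothalamic identity were higher in layer 6 cells of each library. Zfpm2 stood at 922, 1063, 735 and 1035 CPM in layer 6 cells and at 33.9, 91.8, 18.2 and 41.1 CPM in layer 5 cells, a log2 fold of 4.58 ± 0.39 (SE, n = 4 libraries). Foxp2 stood at 617, 1048, 486 and 739 CPM against 137, 130, 143 and 121 CPM (2.38 ± 0.24). Layer 5 cells were even in Foxp2, whereas the layer 6 cells differed between libraries. Nxph3 (5.29), Rgs6, a regulator of G protein signalling (3.28), Syt6 (2.86), Rprm (2.50), Ntsr1 (2.50), Tbr1 (1.38) and Sox5 (1.33) were also higher, on the log2 scale. Over the layer 6 list, 22 of 29 tested genes were higher and 2 lower (Ttc9b and Neurod6), against 23.4% and 24.6% of all genes tested. The median of the list was 1.67.

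Receptor genes showed some of the widest gaps. Grik3 stood at 257, 329, 240 and 245 CPM in layer 6 cells and at 12.6, 16.5, 9.16 and 10.3 CPM in layer 5 cells (4.50 ± 0.08). Htr1f stood at 60.1, 124, 30.9 and 83.7 against 3.86, 7.43, 3.32 and 8.05 CPM (3.64 ± 0.12), so that replicate 2 exceeded replicate 1 in both populations. Grm3 stood at 66.8, 244, 28.3 and 142 against 3.04, 21.7, 1.42 and 10.9 CPM (3.90 ± 0.14). The dopamine receptor gene Drd1 stood at 19.8, 15.3, 13.7 and 15.8 CPM in layer 6 cells and at 0 to 0.323 CPM in layer 5 cells. Gria3, an AMPA receptor subunit, was higher by 2.00 and Grin2b, an NMDA receptor subunit, by 1.56. Of 40 genes of glutamate release and reception, 27 were higher and 5 lower (median 0.60), against 23.4% and 24.6% of all genes tested.

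The vesicular glutamate transporters went in opposite directions. Slc17a6 stood at 11.3, 23.4, 17.3 and 15.6 CPM in layer 6 cells and at 75.7, 61.4, 72.5 and 69.2 CPM in layer 5 cells (-2.13 ± 0.23). Slc17a7 was higher in layer 6 cells by 0.93 ± 0.10. In the thinned cells Slc17a6 was found in 3.4% to 5.63% of layer 6 and 23.1% to 25.9% of layer 5 cells.

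Heparan sulfate genes went in both directions. Hs3st3b1 stood at 29.6, 34.4, 19.0 and 24.2 CPM in layer 6 cells and at 0.410, 0.970, 0.158 and 0.161 CPM in layer 5 cells (6.24 ± 0.20), the largest fold among the genes outside the gates that were named by rule with at least 20 CPM. Hs3st5 was higher by 2.82 ± 0.37 and Hs3st2 by 2.18 ± 0.11, whereas Hs3st1 was lower (-1.15 ± 0.06). Sulf1 stood at 11.8, 36.5, 2.34 and 6.47 CPM in layer 6 cells and at 0 to 0.161 CPM in layer 5 cells. Xylt1, which starts the heparan sulfate chain, was higher by 2.38 and Hs6st3 was lower (-2.01). Of the 31 tested genes of the list, 11 were higher and 6 lower (median 0.11), against 23.4% and 24.6% of all genes tested.

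Adhesion and synapse genes completed the upper end. Dpp10, an auxiliary subunit of Kv4 potassium channels (chromosome 1, 123321471 to 124045559), was higher by 5.52 ± 0.40, Tmem132d by 5.34 ± 0.17, Npas2, a clock-related transcription factor, by 5.16 ± 0.22, Pdzd2 by 5.07 ± 0.12 and Cntnap5b, a contactin-associated protein, by 4.98 ± 0.13. Egfem1 was higher by 4.63 ± 0.55. It stood at 25.5, 32.0, 52.7 and 65.7 CPM in layer 6 cells, against 1.97, 5.49, 0.947 and 0.644 CPM in layer 5 cells.

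Upper-layer genes were lower in layer 6 cells. Pou3f1 (-2.21), Cux2 (-1.88), Lhx2 (-1.87), Pou3f2 (-1.69) and Cux1 (-1.62), factors of upper-layer neurons, were lower on the log2 scale, as was Neurod1, a factor of newborn neurons (-2.16). Of the 23 genes of the upper-layer and callosal list, 16 were lower and 5 higher (median -1.56), against 24.6% and 23.4% of all genes tested. Rorb was 1 of the 5 higher genes, at 539, 855, 231 and 607 against 111, 256, 39.2 and 166 CPM (2.11 ± 0.14).

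Guidance genes went in both directions, also within families. Ephb1 was higher by 2.27 ± 0.09 and Slit1, a Robo ligand, by 2.42 ± 0.10. Unc5d (-2.10), Plxna4 (-2.06), Nrp1 (-1.92) and Robo2 (-1.74) were lower on the log2 scale, as were Ephb2 (-0.45) and Slit2 (-1.25), while Unc5c (0.79) and Plxna1 (0.71) were higher. Of 58 guidance genes tested, 17 were higher and 21 lower, against 23.4% and 24.6% of all genes tested. Of the TLE family, Tle1 (-1.86), Tle3 (-1.19) and Tle5 (-0.40) were lower in the Tle4-positive cells and Tle2 (0.64) was higher.

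**Figure D4:**
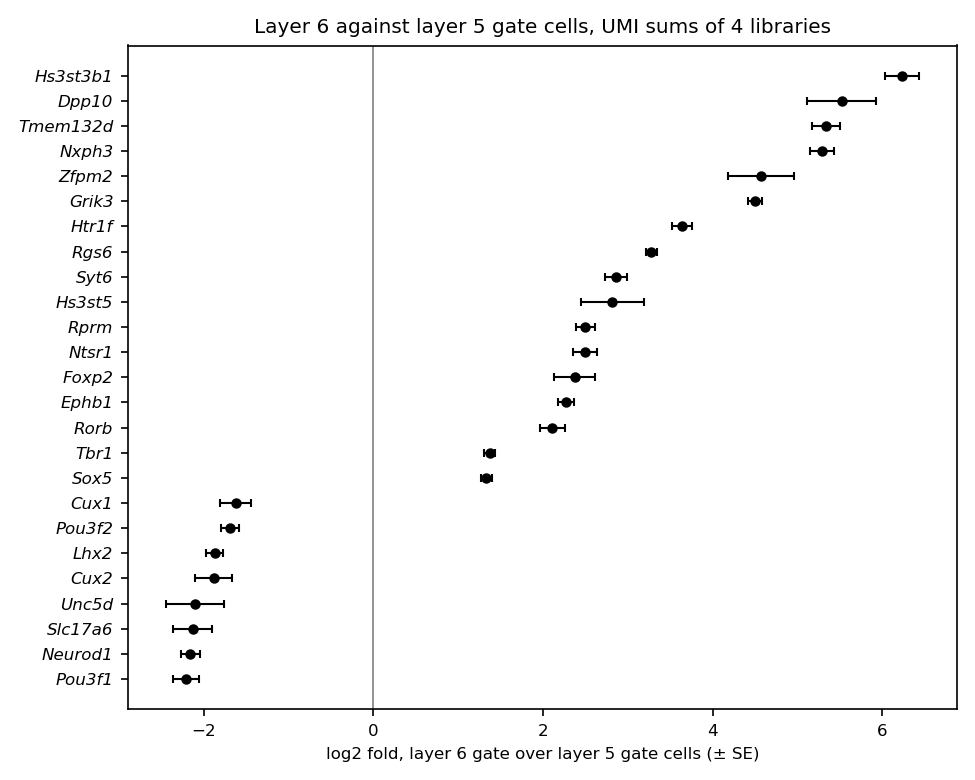
Log2 fold of layer 6 over layer 5 cells (horizontal axis) for named genes, with bars for the standard error of edgeR's fit over the UMI sums of 4 libraries. Hs3st3b1 (6.24), Dpp10 (5.52) and Tmem132d (5.34) lie at the upper end and Pou3f1 (-2.21) at the lower end.

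The subcerebral factors that chose the layer 5 cells were not lower in layer 6 cells. Fezf2 and Bcl11b, which chose the layer 5 cells, stood at 203 to 350 and at 729 to 863 CPM in layer 6 cells and at 194 to 261 and at 314 to 500 CPM in layer 5 cells. Layer 6 cells carried the higher level of both in each of the 4 libraries, although layer 5 cells had been chosen by a minimum of each. Of 17 tested layer 5 genes outside the gates, 4 were higher and 6 lower in layer 6 cells (median -0.28). Over all genes tested, 23.4% were higher and 24.6% lower. Ldb2, a LIM domain binding factor, was higher (0.48 ± 0.09) and Crim1, a marker of corticospinal neurons, was lower (-0.62 ± 0.14).

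Subplate cells, the closest neighbours below layer 6, were too mixed for the same depth of comparison. Cells with at least 2 of the 5 subplate genes numbered 771, none with Cplx3, and 18.6% to 41.5% of them also met the Tle4 and Hs3st4 conditions. Genes that passed numbered 7141 of 13891 (51.4%), 3410 higher and 3731 lower in layer 6 cells, and 2311 higher and 5060 lower of 7371 when scaled by totals alone, which shifted the median of all genes by -0.14 on the log2 scale. All 28 tested genes of S phase and mitosis were lower in layer 6 cells, against 26.9% of all genes tested. Vim, an intermediate filament of radial glia, was lower too (-3.09 ± 0.09). Limited to cells with Neurod6 and without Sox2, Pax6 or Cldn5, a set chosen after the data were seen (131, 40, 97 and 62 cells), 1151 genes passed. Under both sets layer 6 cells held more Kirrel3, an adhesion molecule (2.49 ± 0.11 in the full set), Slit1 (2.40 ± 0.18), Sox5 (1.81 ± 0.11) and Foxp2 (1.22 ± 0.12). Other layer 6 markers held less well. Zfpm2 (1.26 in the full set), Tbr1 (1.02) and Grik3 (1.79) fell as low as 0.42, 0.13 and 0.75 among the 12 alternatives. They passed in 11, 10 and 11 of these, whereas Syt6 (1.79) passed in all 12. The stricter set was 1 of the 12 and the others kept the mixed gate, so these counts mostly describe the mixed set.

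The fourth comparison tested whether the difference between i4F-Nes and CTR itself differed between layer 6 and layer 5 cells. In 7 of 13557 genes (0.0516%) it did, 1 (0.00738%) with a more positive and 6 (0.0443%) with a more negative value in layer 6 cells (edgeR interaction term, adjusted p of at most 0.05). Slit3, a Robo ligand (chromosome 11, 35121224 to 35708507), stood at 32.3 and 51.4 CPM in layer 5 cells of i4F-Nes embryos, against 2.29 and 0.644 CPM in CTR layer 5 cells. In layer 6 cells it stood at 11.2 and 13.5 against 6.18 and 2.13 CPM, so the groups did not overlap in either population and the gap was wider in layer 5. The layer 6 minus layer 5 difference was -3.19 ± 0.32 (adjusted p = 0.000355 in edgeR).

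Nrxn3, a presynaptic adhesion molecule, stood at 29.5 and 61.5 against 19.0 and 26.5 CPM in layer 6 cells and at 61.8 and 114 against 19.7 and 19.6 CPM in layer 5 cells (-1.16 ± 0.17, adjusted p = 0.0146). Adamtsl1, a secreted matrix protein, stood at 85.0 and 127 against 88.0 and 136 CPM in layer 6 and at 8.95 and 12.9 against 3.47 and 5.15 CPM in layer 5 cells (-1.42 ± 0.20, adjusted p = 0.00939). In layer 6 cells the groups overlapped for Adamtsl1 but not for Nrxn3, and in layer 5 cells both i4F-Nes libraries lay above both CTR libraries for each gene. Ube2c, Cks2 and Pbk, genes of mitosis, gave differences of -1.32, -1.20 and -2.05, with overlapping groups in layer 6 cells and both i4F-Nes libraries above in layer 5 cells. The globin gene Hba-a1 gave the positive value of 5.93, and it no longer passed without barcodes of at least 100 globin UMIs.

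Leaving out single libraries changed this count. It was 5 without i4F-Nes replicate 1, none of them among the 7, and 19, 40 and 59 without i4F-Nes replicate 2, CTR replicate 1 and CTR replicate 2. With doublets removed, only Slit3 passed of the 7, at -3.77 and an adjusted p of 0.00230 in edgeR.

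Layer 6 cells also varied among themselves. The ratio of variance to mean (Fano factor) was computed in thinned cells for 1619 genes with a mean of at least 0.5 UMIs, where its median was 1.22. The gene Dpp10 had a Fano factor of 16.4 and 40.9 in i4F-Nes and of 13.6 and 35.4 in CTR, and it ranked among the highest 3 genes in each library. Tenm2, a teneurin adhesion molecule, gave 12.7 and 24.7 against 12.2 and 17, and Kirrel3 12.8 and 14.9 against 12.2 and 12.2. Tmsb4x, Malat1 and Rbfox1, at means of 30.6 to 78.3 UMIs, ranked among the highest 9 in each library. In total 23 genes were among the highest 30 in all 4 libraries, so the genes ranked highest by this ratio were largely shared between groups. The ratio was not adjusted for the mean, and the part of expression level in the ranking was not tested.

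Dpp10 was chosen for a closer description after this ranking was seen. Cells with at least 5 Dpp10 UMIs were 11.5% and 28.7% of the layer 6 cells from i4F-Nes, compared with 5.87% and 15.8% from CTR. Its summed level followed, at 330 and 1186 against 146 and 561 CPM (1.10 ± 0.83), with overlapping groups and replicate 2 above replicate 1 in each. Cells rich in Dpp10 also held more Htr1f, Zfpm2 and Ntsr1 in each library. Between cells with no Dpp10 and cells with at least 5 UMIs, mean Htr1f UMIs per cell went from 0.183 to 1.15, from 0.389 to 1.75, from 0.101 to 1.09 and from 0.252 to 1.47. Mean Zfpm2 UMIs went from 4.45 to 8.17, from 4.41 to 11.1, from 4.08 to 8.73 and from 4.67 to 10.8. Sox5 did not follow, with means from 21.2 to 18.0, from 19.6 to 24.6, from 23.1 to 17.2 and from 19.3 to 19.0, and Syt6 was lower in the Dpp10-rich cells of 2 libraries and Nxph3 in those of 1.

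Factors shared with layer 5 went the other way. Mean Fezf2 UMIs per cell went from 1.62 to 0.674, from 1.11 to 0.571, from 1.88 to 0.500 and from 1.55 to 0.617 between the same cells. Mean Bcl11b UMIs went from 4.85 to 2.96, from 3.96 to 2.73, from 4.78 to 2.00 and from 4.61 to 2.91. Ntsr1, the adult marker, was higher in Dpp10-rich cells, from 0.113 to 0.268 and from 0.143 to 0.329 in i4F-Nes and from 0.102 to 0.250 and from 0.117 to 0.349 in CTR. The direction was the same in all 4 libraries for Htr1f, Zfpm2, Ntsr1, Fezf2 and Bcl11b, and no test over cells was made because cells of 1 library are not replicates.

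**Figure D5:**
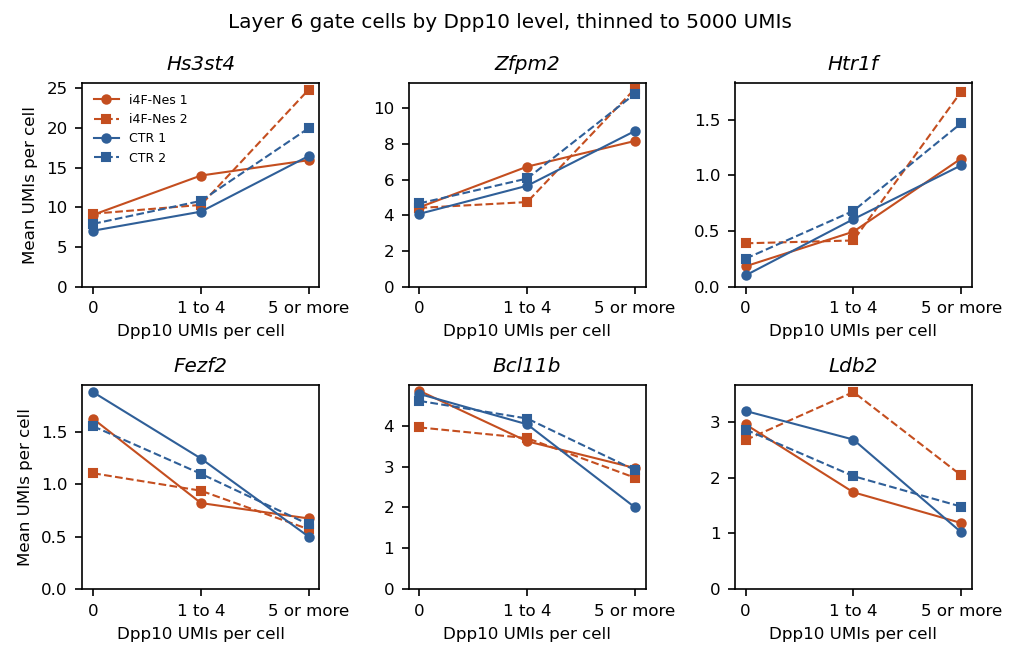
Mean UMIs per cell of 6 genes (vertical axes) in layer 6 cells with 0, 1 to 4 or at least 5 Dpp10 UMIs (horizontal axes), after thinning to 5000 UMIs, with 1 line per library. Hs3st4, Zfpm2 and Htr1f are higher and Fezf2, Bcl11b and Ldb2 lower in the cells with at least 5 Dpp10 UMIs than in those with none, in all 4 libraries.

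A second source of variation was a set of cells with Unc5d, a netrin receptor of migrating upper-layer neurons. Cells with at least 5 Unc5d UMIs made up 3.74%, 5.24%, 6.01% and 5.31% of layer 6 cells, and 71.1%, 50%, 60% and 76.0% of them carried a doublet mark. They held 4.47, 3.98, 3.22 and 6.58 Hs3st4 UMIs per cell, against 10.9, 14.0, 8.53 and 10.8 in cells without Unc5d. The part of doublets in these levels was not tested.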

How the data were processed

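Per the file headers, the authors made the deposited matrices of UMI counts, 1 per library, with cellranger 7.0.1, and per the submitters' processing notes the genome build was mm10. Which annotation release was used, whether intronic reads were counted and whether doublets or ambient RNA were removed is not given in the sources used here. Per the labels' protocols, libraries were 10x Chromium 3′ libraries. The counts of 32285 genes per matrix were used as deposited.

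UMIs were summed per library and gate and tested with edgeR 4.0.16 in R 4.3.3 (quasi-likelihood test, robust, TMM, filterByExpr, Benjamini-Hochberg at 0.05). Levels are CPM and fold changes fitted log2 values ± SE. DESeq2 1.42.0 was an alternative. Doublet scores came from Scrublet in scanpy 1.11.5. Shares were compared by exact permutation over the 6 splits of 4 libraries. The fits were also run on simulated counts with 200 changed genes, drawn without a replicate effect. Such counts do not give error rates for these libraries. Depth was 11749347 to 22156837 layer 6 UMIs per library.

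The layer 6 cells and the 23 gene lists were chosen with earlier results of these data known. Genes were named by rule: the gate genes and markers, the 10 largest changes in each direction at 20 CPM or more (or the 10 smallest p where fewer passed), up to 4 per list, layer 6 list genes at 5 CPM or more, and the reprogramming factors. Other list members, and Drd1, Rmst, Ebf1 and Tafa1, were named after their values were seen. All 189 genes named by rule matched GENCODE M21 by gene ID (coordinates on GRCm38, the same assembly as mm10). Results for 1 of them are not reported here. Groups and replicate numbers came from the sample titles. Alternatives covered scaling, filters, tool, gate, doublets, mitochondrial limit, each library and the replicate block.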

Additional observations from a re-analysis of the deposited data

Results flagged for a closer look

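The difference between i4F-Nes and CTR was itself different between layer 6 and layer 5 cells, by edgeR's interaction term, for 7 genes. On the log2 scale, layer 6 minus layer 5, the values were -3.19 for Slit3, -1.32 for Ube2c, 5.93 for Hba-a1, -1.42 for Adamtsl1, -1.20 for Cks2, -1.16 for Nrxn3 and -2.05 for Pbk. None of the 7 passed without i4F-Nes replicate 1, in a fit that leaves 1 i4F-Nes library. Groups of 2 libraries are too small to look for a single outlying sample.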

How the results depend on the processing

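The share difference of 0.342 points ran from -1.06 to 1.74 when 1 library was left out, was 0.113 to 1.87 under the gate, thinning, doublet and Krt8, Cytl1 and Lbhd2 alternatives, and was 10.6 with layer 6, layer 5 and subplate cells as denominator. The median UMI difference of -276.25 ran from -2652.5 to 2100. For i4F-Nes against CTR, 0 genes passed under RLE size factors, without TMM, with doublets removed, with the stricter gate, with at most 5% mitochondrial UMIs and, chosen after seeing the data, without globin-rich barcodes. DESeq2 called 5, no filter on low counts gave 5, and leaving out libraries gave 0 to 6.

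The replicate block was also fitted, although the labels do not state that equal numbers are paired. It called 123 genes, 93 higher and 30 lower. Egfem1, Cdh4, Htr1f, Grm3, Nxph3, Sulf1, Hs3st5, Hs3st3b1 and Gpc6 were among them. Deviations from the group mean of same-numbered libraries correlated at 0.626 over 9450 genes. For the share, the mean difference over same-numbered libraries equals the 0.342 points by arithmetic. The differences were 2.96 points for replicate 1 and -2.28 points for replicate 2.

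Layer 6 against layer 5 gave 5211 to 6597 calls without 1 library. Against subplate cells 5740 to 7070 passed, and 1151 with the stricter subplate set, where Hes1 turned from -3.95 to 1.43. The interaction gave 91 calls with no filter, 13 with DESeq2, 15 with the stricter gate, 1 with doublets removed and 5 to 59 without 1 library.

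Fold changes of i4F-Nes against CTR turned sign for genes near 0. When 1 library was left out, Zfpm2 ran from -0.048 (without CTR replicate 1) to 0.41, Grm3 from -0.34 (without i4F-Nes replicate 2) to 2.41 and Pou5f1 from -0.079 (without CTR replicate 2) to 1.13. Sox2 ran from -0.72 to 0.47, with positive values without CTR replicate 1 and without i4F-Nes replicate 1 (0.19), and Myc from -0.42 to 0.40, with positive values without CTR replicate 1 and without i4F-Nes replicate 2 (0.17). Tbr1 ran from -0.039 (without CTR replicate 2) to 0.045 and was -0.018 without i4F-Nes replicate 1. Sox5 ran from -0.075 to 0.071 (without CTR replicate 1) and was 0.0048 without i4F-Nes replicate 2. Tbr1 was also -0.0006 with RLE size factors and DESeq2, -0.012 with no filter and -0.038 with doublets removed, where Sox2 was 0.57. Sox5 was 0.0115 without TMM and 0.029 with the stricter gate. The cause of these changes was not tested, apart from the smaller number of libraries in the fits that leave 1 out, where the lone library is assumed to vary like the others. Of the gene values under alternatives, 1176 kept direction and side of the threshold, 30 fell short of it, 24 newly passed and 19 reversed.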
